A study of Mus musculus with 8 samples.

Results

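The DNA replication machinery was described through 42 genes that encode the origin recognition complex and its loading partners, the MCM helicase, the factors that fire origins, the replicative polymerases and primase, the sliding clamp and its loader, the single-strand binding proteins, and the enzymes that join the lagging strand and assemble chromatin behind the fork. They were chosen by gene symbol, and all 42 were measured among 12294 genes. The cells were mouse leukemic progenitors called I1DN in the labels, positive for cKit and negative for CD11b, sorted from mice that had been transplanted with I1DN cells. Treatments lasted 5 days and were AG120_AZA (both drugs together), AG120 (AG-120, or ivosidenib, which blocks mutant IDH1), AZA, that is azacitidine, and vehicle, with 2 libraries each and 8 in all. Every group, vehicle included, carries the same I1DN label, and the labels do not spell out its alleles. Sorting was per mouse, but no label says that the libraries of a group came from separate mice, so the p-values cover only the spread between libraries, which may be technical. The series' title concerns the cycling of leukemia stem cells when mutant IDH1 is inhibited.

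Replication starts when the origin recognition complex, with Cdc6 and Cdt1, loads MCM rings onto DNA in G1. In S phase the kinase of Cdc7 and Dbf4, together with Cdc45, the GINS complex and Mcm10, turns the loaded rings into moving helicases. DNA polymerase alpha and primase lay down primers, polymerase epsilon copies mainly the leading strand and polymerase delta mainly the lagging strand, both held by the Pcna clamp. Many of these genes are transcribed through E2F factors as cells enter S phase. Azacitidine is a cytidine analogue that is partly built into DNA as it is copied, where it traps DNA methyltransferases.

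QuantSeq reads the 3′ end of polyadenylated RNA, so a transcript gives reads from its end and a level is not divided by transcript length. Levels are log2 CPM, the log2 of reads scaled to a common library total, as the authors deposited them. Read depth is not given, and all libraries had been brought to one distribution of values. The number of distinct values below a gene's in a library is the least number of reads it can have had, which was 105 to 149 for the median gene. As a check of the sort, Kit was at 4.51 and 4.26 log2 CPM in AG120_AZA, 5.15 and 5.84 in AG120, 6.65 and 5.54 in AZA, and 6.31 and 6.59 in vehicle. Cd34, another progenitor marker, was at 4.41 and 4.10 in AG120_AZA, averaged 6.05 ± 0.08 in AG120 (SD, n = 2), and was at 7.72 and 7.28 in AZA and 7.91 and 7.31 in vehicle. Both were lower in every AG120_AZA library than in any AZA or vehicle library. Itgam, which encodes CD11b, was still measured at 2.10 to 4.53 log2 CPM over the 8 libraries.

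The median level of the 42 genes was 5.82 log2 CPM, against 4.32 for all genes. Their median SD over the 8 libraries was 0.292 log2 CPM, against 0.443 for all genes. Much of that gap goes with level: among genes averaging at least 5 log2 CPM, the median SD was 0.259 for 29 replication genes and 0.288 for all 4760 genes. In AG120_AZA replicate 2, 14 of the 42 (33.3%) lay more than 0.5 from their mean over the 8 libraries, against 43.8% of all genes. Among all genes averaging at least 5 log2 CPM it was 27.3%. The 33.3% also takes in members below that level, so these 2 shares are not matched. Whether the members were steadier in that library at a matched level was not tested. In each of the other libraries 1 to 8 members lay more than 0.5 from their mean. The least number of reads for the median gene was 105 in AG120_AZA replicate 2, the lowest of the 8 libraries. In these bulk samples, a change in the share of cells in S phase and a change in replication RNA per cell cannot be told apart.

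**Figure D1:**
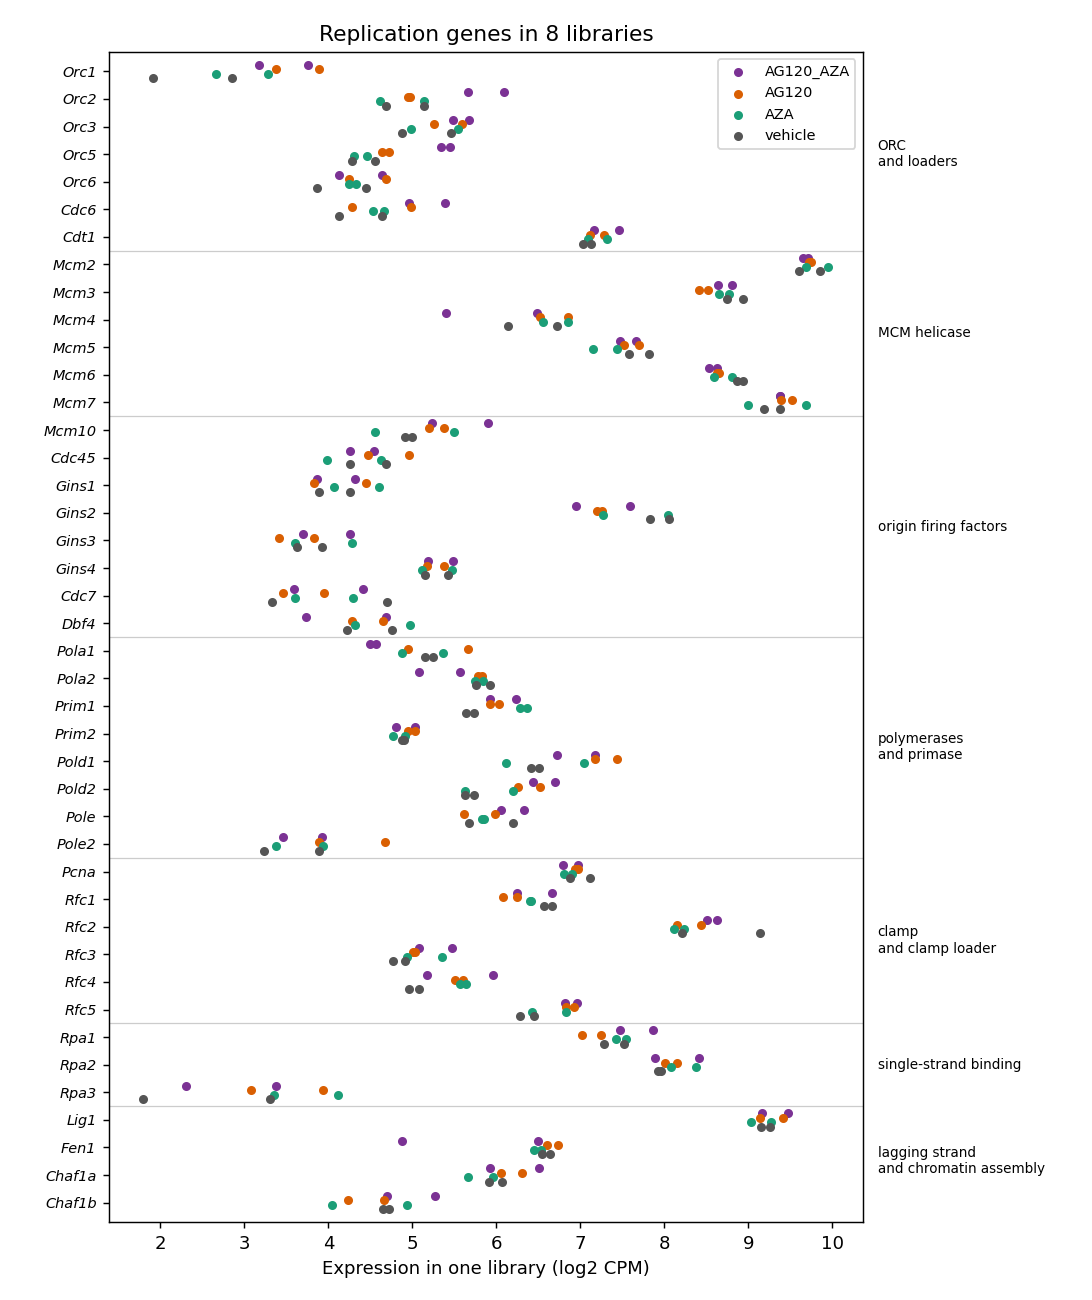
Expression of the 42 replication genes in each of the 8 libraries, as log2 CPM on the horizontal axis, with 1 point per library coloured by group and genes grouped by role on the vertical axis. The points of most genes lie close together, from Orc1 at a mean of 3.11 to Mcm2 at 9.74, while Fen1 has 1 AG120_AZA library at 4.87 apart from the other 7.

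The MCM helicase genes were the most expressed role, with a median level of 8.70 log2 CPM over 6 genes. Mcm2 ranked first of the 42 and spanned only 0.350 log2 CPM over the 8 libraries, from 9.61 to 9.96. Mcm7 averaged 9.37, Mcm6 8.71, Mcm3 8.69 and Mcm5 7.54. The values of Mcm7 were nearly those of Cops6, a gene over its 3′ end, so its level and rank may belong to either gene. Lig1, the ligase that seals lagging-strand fragments, averaged 9.24 and ranked behind Mcm2 and Mcm7 alone. Pcna was at 6.79 to 7.12, a range of 0.325, and Prim2, the large subunit of primase, had the smallest range of all members at 0.257. At the other end, Rpa3, the small subunit of the single-strand binding trimer, ranged over 2.32 and Orc1 over 1.98. Their levels were also the lowest, at means of 3.16 and 3.11, and could rest on as few as 21 and 23 reads in a library.

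Only 1 of the 42 genes passed the test in any of 8 comparisons, and it was Pold2. In limma over all 12294 genes with Benjamini-Hochberg adjustment at 0.05, no member passed in AG120_AZA against vehicle, where 3.02% of all genes did. None passed in AG120 against vehicle (0.578% of all genes), AG120_AZA against AZA (2.26%), AZA against vehicle (0%) or AG120_AZA against AG120 (0%). The comparison of AG120 over both AZA levels, which sets the 4 libraries with AG120 against the 4 without and allows for AZA, called Pold2 alone, 1 of 42, against 5.85% of all genes and 3.38% in the higher direction. AZA over both AG120 levels and the interaction of the drugs called no member and no gene at all (0% each).

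The unadjusted counts are set beside those of all genes. An unadjusted p below 0.05 was reached by 8 of 42 members (19.0%) in AG120_AZA against vehicle, where 21.4% of all genes reached it. The count was 5 (11.9%) in AG120 against vehicle, beside 13.1% of all genes, and 1 (2.38%) in AZA against vehicle, beside 3.51%. Between treatments it was 5 (11.9%) in AG120_AZA against AG120, beside 10.1%, and 4 (9.52%) in AG120_AZA against AZA, beside 19.6%. Over both levels of the other drug it was 6 (14.3%) for AG120, beside 22.9%, and 0 for AZA, beside 6.19%, with 1 (2.38%) in the interaction, beside 6.22%. Shares near those of all genes say nothing particular about the members. Libraries of the 2 groups did not overlap for 19 of 42 members in AG120_AZA against vehicle (51.1% of all genes), 18 in AG120 against vehicle (46.6%), 9 in AZA against vehicle (28.4%), 16 in AG120_AZA against AG120 (44.5%) and 11 in AG120_AZA against AZA (49.4%). With 4 libraries on each side, it was 2 for AG120 (14%; Pold2 and Orc5) and 1 for AZA (2.06%; Fen1). As shares of 42, these counts are near or below those of all genes. How often 1 group lies beyond all the other libraries was not counted over all genes. Where such a separation is given below, it only describes the values.

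The intervals show how much change the data leave room for. In AG120 against vehicle, the 95% interval of 28 of 42 members lay within a log2 change of 1 in either direction, which is a factor of 2, against 33.7% of all genes. It did so for 31 in AZA against vehicle (42.5% of all genes) and for 20 in AG120_AZA against vehicle (29.9%). It did so for 24 in AG120_AZA against AG120 (36.2%), 25 in AG120_AZA against AZA (31.3%) and 14 in the interaction (15.9%). Over both levels of the other drug, with 4 libraries on each side, it did so for 34 with AG120 (50.3%) and 40 with AZA (59.1%). Among genes averaging at least 5 log2 CPM, 16 of 29 members lay within those limits in AG120_AZA against vehicle, and 60.4% of all genes did. For AZA over both AG120 levels, 28 of 29 did, against 92.1%. The median log2 change of the 42 was 0.17 in AG120_AZA against vehicle (all genes 0.02), 0.10 in AG120 against vehicle (0.00) and 0.07 in AZA against vehicle (-0.01), with 27, 27 and 23 members above 0. These 3 comparisons share the vehicle libraries.

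**Figure D2:**
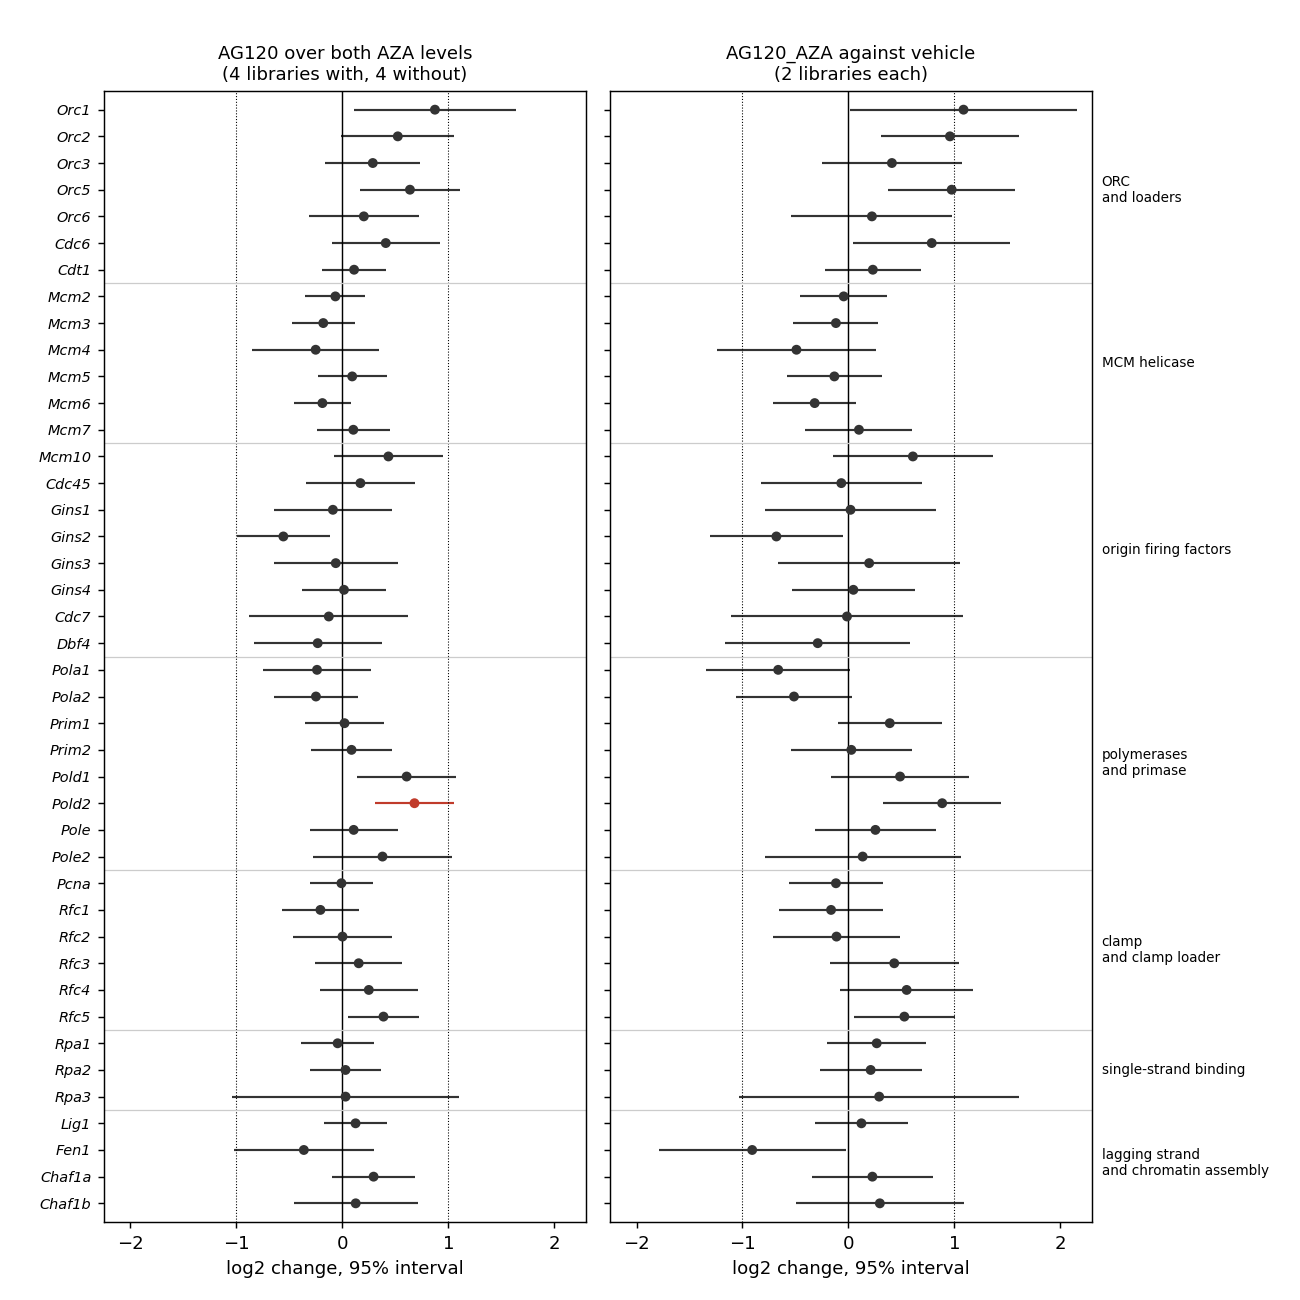
Log2 change of each replication gene (points) with its 95% interval (lines), for AG120 over both AZA levels on the left and AG120_AZA against vehicle on the right, with genes grouped by role, dotted lines at a log2 change of 1 in either direction and red for a gene that passed the test. Pold2 on the left is the single red point at 0.68, most intervals cross 0, the 7 origin recognition and loading genes lie above 0 in both panels, and the right panel runs from Fen1 at -0.91 to Orc1 at 1.09.

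Pold2 encodes the accessory subunit of DNA polymerase delta and lies at chr11:5872180-5878292 on the minus strand of GRCm38. It was at 6.43 and 6.70 log2 CPM in AG120_AZA, 6.53 and 6.26 in AG120, 5.63 and 6.20 in AZA, and 5.63 and 5.73 in vehicle. All 4 libraries with AG120 were above all 4 without it, with the closest pair at 6.26 in AG120 replicate 2 and 6.20 in AZA replicate 2. The log2 change with AG120 over both AZA levels was 0.68 ± 0.17 (SE; 95% interval 0.30 to 1.06), a 1.60-fold rise (adjusted p = 0.0404). In AG120_AZA against vehicle the difference was 0.89 ± 0.25 and did not pass (adjusted p = 0.0834). The call was lost without the mean-variance trend (adjusted p = 0.113) and when any 1 of 7 of the 8 libraries was left out, with adjusted p at 0.0687 and 0.0784 without vehicle replicates 1 and 2, 0.157 and 0.0514 without AG120 replicates 1 and 2, 0.126 without AZA replicate 1, and 0.0714 and 0.0975 without AG120_AZA replicates 1 and 2. It was kept without AZA replicate 2 (adjusted p = 0.0305).

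Markers of other blood cells differed between the groups. With AG120 over both AZA levels, 5.85% of all genes were called. Among markers, 8 of 12 erythroid and 6 of 10 mast cell, basophil and eosinophil ones were called higher. Called lower were 1 of 10 neutrophil, 4 of 7 monocyte and macrophage and 1 of 7 megakaryocyte markers. Log2 changes were positive for 10 of 12 erythroid markers and negative for Slc4a1 (-2.02) and Alas2 (-1.03), neither of them called. They were positive for 10 of 10 mast cell, basophil and eosinophil, 0 of 10 neutrophil, 1 of 7 monocyte and macrophage and 1 of 7 megakaryocyte markers. Of the 12 erythroid markers, Gata1 had the highest mean level in each group. The summed level of 12 of 12 erythroid markers was 1018 to 1332 CPM in AG120_AZA, 609 to 1016 in AG120, 231 to 286 in AZA and 200 to 305 in vehicle. That of 10 of 10 mast cell, basophil and eosinophil markers was 2360 to 3727, 3608 to 3702, 1477 to 1486 and 934 to 1387 CPM in the same order of groups. Neutrophil markers (10 of 10) summed to 1074 to 2838, 3953 to 6421, 11085 to 15421 and 2871 to 13039 CPM, and monocyte and macrophage markers (7 of 8) to 369 to 411, 392 to 425, 995 to 1815 and 742 to 2195 CPM. Megakaryocyte markers (7 of 7) summed to 3604 to 3872, 541 to 1405, 2241 to 2712 and 2457 to 2613 CPM. Ermap, Fcer1a and Mmp8 were each at the lowest listed value in at least 1 library, and no marker had a true 0, since the values are logs. The part of these cells in the values of Pold2 and the other replication genes was not tested.

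The catalytic partner of Pold2 was also measured higher with AG120, short of a call. Pold1, the catalytic subunit of polymerase delta, was at 6.73 and 7.17 log2 CPM in AG120_AZA, 7.18 and 7.44 in AG120, 6.12 and 7.05 in AZA, and 6.51 and 6.41 in vehicle. AZA replicate 2 lay among the libraries with AG120, above AG120_AZA replicate 1. The log2 change with AG120 over both AZA levels was 0.61 ± 0.21 (adjusted p = 0.116), and without AZA replicate 2 it was 0.84 and passed (adjusted p = 0.0250). The polymerase epsilon genes gave no call, and their difference from the polymerase delta genes was not tested. Pole, the catalytic subunit of polymerase epsilon, was at 6.05 and 6.33 in AG120_AZA, 5.98 and 5.61 in AG120, 5.83 and 5.85 in AZA, and 6.20 and 5.67 in vehicle, so that AG120_AZA lay above AG120 and AZA while vehicle overlapped all 3. Pole2, its second subunit, was at 3.93 and 3.47, 3.89 and 4.67, 3.93 and 3.37, and 3.24 and 3.88 in the same order. Its log2 change was 0.72 in AG120 against vehicle, where that of Pold2 was 0.72 as well, and 0.38 ± 0.30 with AG120 over both AZA levels (adjusted p = 0.485), against 0.11 ± 0.19 for Pole (adjusted p = 0.777).

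Polymerase alpha and primase, which make the primers, gave no call. Pola1, the catalytic subunit of polymerase alpha, was at 4.50 and 4.57 log2 CPM in AG120_AZA, 5.66 and 4.95 in AG120, 5.36 and 4.88 in AZA, and 5.15 and 5.24 in vehicle. Both AG120_AZA libraries were below the other 6, and the difference from vehicle was -0.66 (adjusted p = 0.244). Pola2, its regulatory subunit, differed by -0.51 in the same comparison. Prim1, the catalytic subunit of primase, was at 5.93 and 6.24 in AG120_AZA, 6.03 and 5.92 in AG120, 6.29 and 6.37 in AZA, and 5.74 and 5.64 in vehicle. It was the single member with an unadjusted p below 0.05 in AZA against vehicle, with a log2 change of 0.64 ± 0.22 and an adjusted p of 1. Both AZA libraries lay above the other 6.

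**Figure D3:**
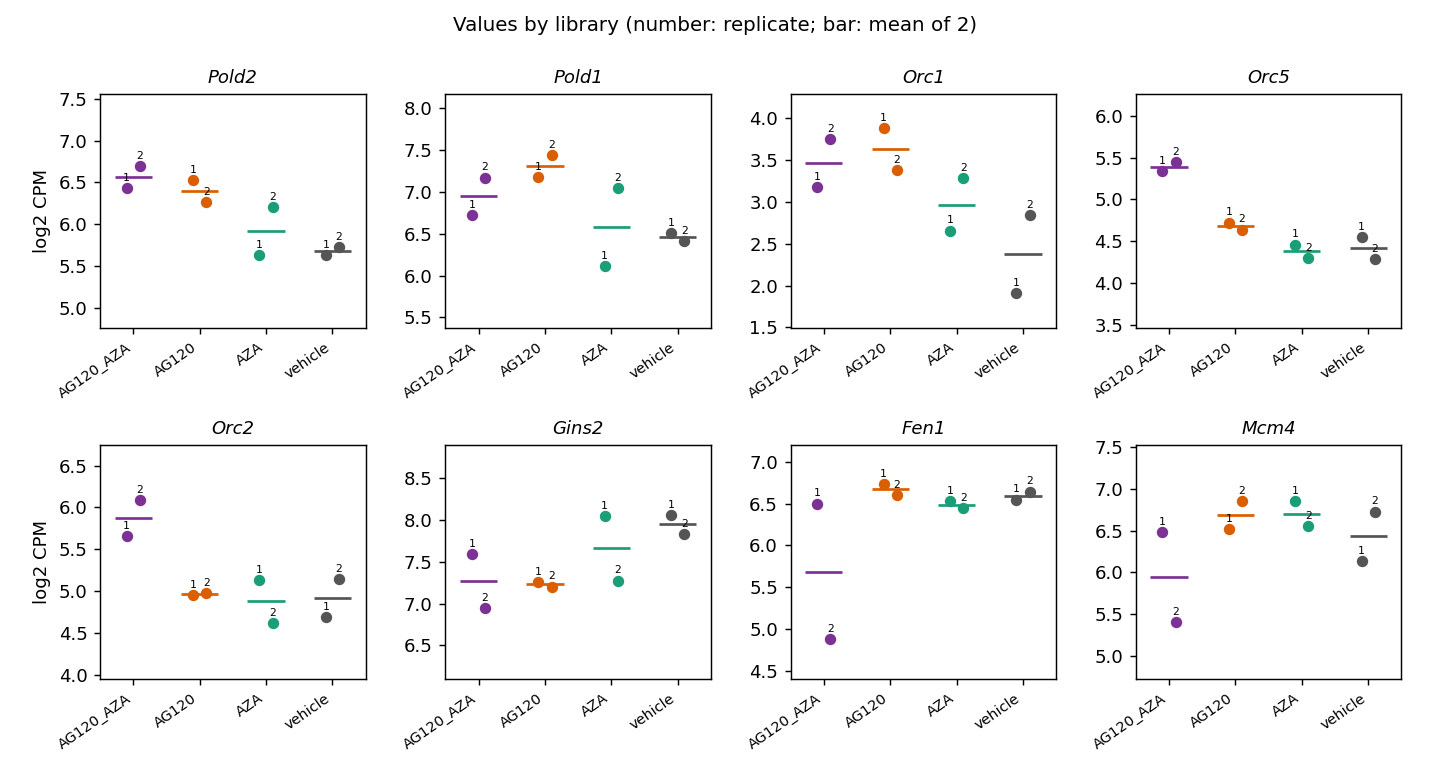
Log2 CPM of 8 replication genes described in the text, with 1 point per library numbered by replicate, a bar at the mean of 2, and the groups AG120_AZA, AG120, AZA and vehicle from left to right. Pold2 is at 6.26 to 6.70 in the 4 libraries with AG120 and at 5.63 to 6.20 in the 4 without it, and Orc5 is at 5.34 and 5.45 in AG120_AZA, above its other 6 libraries.

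Among the 7 genes of the origin recognition complex and its loading partners, every log2 change against vehicle was positive in AG120_AZA (median 0.79) and in AG120 (median 0.26), and none passed. In AZA against vehicle 5 of 7 were positive (median 0.12). For AZA over both AG120 levels 7 of 7 were (median 0.21), so the direction was not particular to AG120. Orc5, a subunit of the complex, was at 5.34 and 5.45 log2 CPM in AG120_AZA, 4.72 and 4.64 in AG120, 4.46 and 4.30 in AZA, and 4.55 and 4.29 in vehicle. Both AG120_AZA libraries were above the other 6, which lay between 4.29 and 4.72. The difference was 0.98 ± 0.27 against vehicle (adjusted p = 0.0793) and 1.01 ± 0.27 against AZA (adjusted p = 0.0804), the smallest adjusted p of any member in each of these comparisons. Orc2, another subunit, was at 5.66 and 6.09 in AG120_AZA, 4.95 and 4.98 in AG120, 5.13 and 4.62 in AZA, and 4.68 and 5.14 in vehicle. The groups separated in the same way as for Orc5, with a difference of 0.96 ± 0.30 against vehicle (adjusted p = 0.101) and an interaction of the 2 drugs of 0.94 ± 0.42 (adjusted p = 0.794). An exon of Nif3l1 lies over the 3′ end of Orc2 on the opposite strand, as described below. Nif3l1 had values of 0.85 and 0.76 in these 2 comparisons.

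Orc1, the subunit whose level follows the cell cycle, was at 3.18 and 3.75 log2 CPM in AG120_AZA, 3.89 and 3.38 in AG120, 2.66 and 3.28 in AZA, and 1.91 and 2.85 in vehicle. Vehicle replicate 1 was the lowest of the 8, and AZA replicate 2 lay among the libraries with AG120. Its log2 change was 1.25 ± 0.49 in AG120 against vehicle (adjusted p = 0.302) and 1.09 ± 0.49 in AG120_AZA against vehicle (adjusted p = 0.227). Cdc6, the ATPase that helps load the MCM rings, was at 4.96 and 5.39 in AG120_AZA, 4.29 and 4.99 in AG120, 4.67 and 4.54 in AZA, and 4.13 and 4.64 in vehicle (0.79 ± 0.34 in AG120_AZA against vehicle, adjusted p = 0.209). The libraries of AG120_AZA were above those of AZA and vehicle. Orc3 differed by 0.41, Orc6 by 0.22 and Cdt1, the second loading factor, by 0.23 in AG120_AZA against vehicle. Mcm10, which helps start the helicase and is counted with the firing factors, was at 5.23 and 5.90, 5.37 and 5.20, 4.56 and 5.49, and 4.92 and 5.00 in AG120_AZA, AG120, AZA and vehicle.

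The promoters of members whose values are given above are printed because members of 1 complex had positive log2 changes together with AG120 (Pold1 with Pold2, Orc1 with Orc5), and that of Mcm6 because it held the most E2F sites among the printed ones. The windows are from RefSeq on GRCm38.p6, run 250 bases before to 50 after the start of the gene, and are given on the gene's own strand. Capitals mark E2F sites (TTTCCCGC, TTTCGCGC, TTTGCCGC or TTTGGCGC) and CCAAT boxes (CCAAT), each on either strand. They are Pold2 at chr11:5878207-5878506 (minus strand), Pold1 at chr7:44548766-44549065 (minus), Orc5 at chr5:22550289-22550588 (minus), Orc1 at chr4:108579204-108579503 (plus) and Mcm6 at chr1:128359656-128359955 (minus).
Pold2: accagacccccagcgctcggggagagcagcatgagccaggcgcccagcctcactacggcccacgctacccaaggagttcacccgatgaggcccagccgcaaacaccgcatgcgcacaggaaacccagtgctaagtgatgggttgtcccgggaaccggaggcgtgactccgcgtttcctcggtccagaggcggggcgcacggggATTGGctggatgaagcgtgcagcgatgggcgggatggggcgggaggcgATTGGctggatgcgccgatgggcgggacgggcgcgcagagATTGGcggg
Pold1: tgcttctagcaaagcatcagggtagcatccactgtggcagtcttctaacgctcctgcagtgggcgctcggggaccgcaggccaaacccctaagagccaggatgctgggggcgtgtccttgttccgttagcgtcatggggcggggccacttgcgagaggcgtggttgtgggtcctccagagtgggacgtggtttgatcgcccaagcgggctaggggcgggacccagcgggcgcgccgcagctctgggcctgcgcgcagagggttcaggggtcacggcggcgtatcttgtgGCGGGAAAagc
Orc5: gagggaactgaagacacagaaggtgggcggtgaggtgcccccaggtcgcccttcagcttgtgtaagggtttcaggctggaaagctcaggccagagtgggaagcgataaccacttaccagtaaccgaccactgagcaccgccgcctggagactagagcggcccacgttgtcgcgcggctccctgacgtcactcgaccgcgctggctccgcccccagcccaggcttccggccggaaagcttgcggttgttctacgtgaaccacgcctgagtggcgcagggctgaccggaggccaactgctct
Orc1: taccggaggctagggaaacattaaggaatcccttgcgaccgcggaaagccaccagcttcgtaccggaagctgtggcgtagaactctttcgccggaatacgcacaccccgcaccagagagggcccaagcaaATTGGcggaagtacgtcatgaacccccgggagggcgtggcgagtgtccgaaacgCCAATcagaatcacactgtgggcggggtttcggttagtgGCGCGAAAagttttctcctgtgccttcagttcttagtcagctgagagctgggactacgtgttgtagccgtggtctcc
Mcm6: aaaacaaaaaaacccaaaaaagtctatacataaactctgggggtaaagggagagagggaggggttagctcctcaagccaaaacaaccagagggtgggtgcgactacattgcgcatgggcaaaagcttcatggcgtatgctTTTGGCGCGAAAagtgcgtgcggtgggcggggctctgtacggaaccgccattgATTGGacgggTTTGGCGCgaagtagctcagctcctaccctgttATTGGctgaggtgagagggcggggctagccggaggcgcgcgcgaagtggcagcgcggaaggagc

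Mcm6 held 3 E2F sites, 2 of which overlap on opposite strands, and 2 CCAAT boxes. Orc1 held 1 E2F site and 2 CCAAT boxes, Pold1 held 1 E2F site, this window of Pold2 held 3 CCAAT boxes and no such E2F site, and Orc5 held neither. A second RefSeq window of Pold2, at chr11:5877614-5877913, held none of the searched motifs and is not printed. Of the 35 members with a promoter in the RefSeq table, 14 had an E2F site in at least 1 window (40.0%, against 2.61% of the 27025 genes in the table). By window, 33.3% of the members' 42 windows held one, against 2.26% of all 32851. CCAAT boxes were in 54.8% of the members' windows against 37.4%, and the GC box GGGCGG, also searched on both strands, in 71.4% against 35.7%. E2F sites were found for 4 of 5 MCM genes, 4 of 7 origin recognition and loading genes, and 3 of 6 polymerase and primase genes. They were found for 1 of 5 firing factors, 1 of 5 clamp and clamp loader genes and 1 of 4 lagging-strand and chromatin assembly genes. The single-strand binding trimer had them for 0 of 3 genes. In AG120 over both AZA levels the median log2 change was 0.12 for the 14 members with a site and 0.03 for the 21 without, and in AG120_AZA against vehicle it was 0.17 and 0.23. These matches are letters in a window and no measure of binding.

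None of the MCM helicase genes passed in any comparison. Mcm6 was at 8.54 and 8.63 log2 CPM in AG120_AZA, 8.62 and 8.66 in AG120, 8.59 and 8.81 in AZA, and 8.94 and 8.87 in vehicle. Both vehicle libraries were the highest, with a difference of -0.32 in AG120_AZA against vehicle that did not pass. Mcm3 was at 8.65 and 8.81, 8.42 and 8.53, 8.65 and 8.78, and 8.75 and 8.94 in the same order of groups. Mcm5 was at 7.47 and 7.67, 7.52 and 7.70, 7.15 and 7.43, and 7.58 and 7.82 in that order, with both AZA libraries below the other 6. Mcm4 was at 6.48 and 5.40 in AG120_AZA, 6.52 and 6.86 in AG120, 6.85 and 6.55 in AZA, and 6.14 and 6.73 in vehicle, so that 1 AG120_AZA library lay below the other 7. The difference of Mcm4 in AG120_AZA against AZA was -0.76 ± 0.34 (adjusted p = 0.252). Without AG120_AZA replicate 1, which leaves the low library alone, it was -1.30 (adjusted p = 0.0487), where the lone library is assumed to vary as the other groups do.

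Several members cannot be told apart from a neighbour. The annotation (GENCODE M21 on GRCm38) places an exon of a measured gene over the last 1000 bases of 8 members, on the opposite strand each time, and the labels do not say whether reads were counted by strand. Gins2, a subunit of the GINS complex on chromosome 8, shares 2758 exon bases with Gse1, and the 2 values differed by at most 0.0277 log2 in any library. Fen1, the nuclease that trims lagging-strand flaps, shares 1909 exon bases with the antisense gene Gm10143, and they differed by at most 0.0317. Mcm7 shares 64 bases with Cops6, a subunit of the COP9 signalosome, and lay 0.0592 to 0.175 above it in every library. For these 3 pairs the table holds nearly 1 set of values, and which gene the reads came from cannot be told apart.

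The other 5 pairs differed more. Chaf1a, a subunit of chromatin assembly factor CAF-1, shares 4648 exon bases with Ubxn6 and lay 0.539 to 0.865 below it in every library. Orc2 shares 1150 with Nif3l1 and lay 0.423 to 1.17 below it, and Nif3l1 differed by 0.85 in AG120_AZA against vehicle, beside 0.96 for Orc2. Rfc4 and Rfc5, subunits of the clamp loader, share 194 bases with Eif4a2 and 499 with Wsb2, and Rfc2, another subunit, 952 with Lat2. Rfc2 was at 8.51 and 8.62 log2 CPM in AG120_AZA, 8.43 and 8.15 in AG120, 8.23 and 8.12 in AZA, and 9.14 and 8.22 in vehicle, and it lay 0.764 to 1.35 above Lat2. Vehicle replicate 1 was the highest library for both Rfc2 and Lat2.

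**Figure D4:**
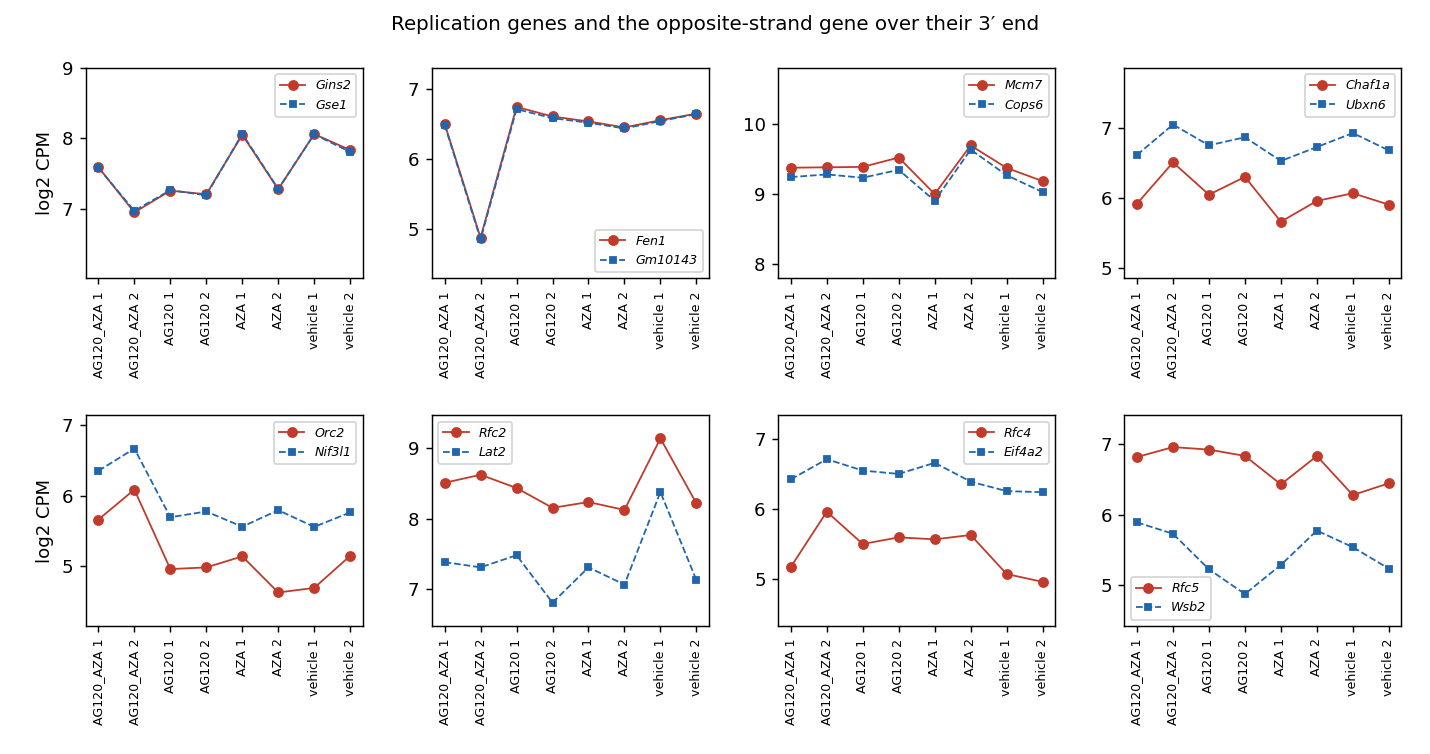
Log2 CPM in the 8 libraries of the 8 replication genes that have an exon of a measured opposite-strand gene over their last 1000 bases, drawn with that gene. The lines of Gins2 and Gse1 and of Fen1 and Gm10143 lie on each other, with differences of at most 0.0277 and 0.0317, while Rfc5 and Wsb2 part by up to 1.97.

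Gins2 had the lowest log2 change of the members in AG120 against vehicle, and Fen1 in AG120_AZA against vehicle, and both carry this limit. Gins2 was at 7.59 and 6.94 log2 CPM in AG120_AZA, 7.25 and 7.20 in AG120, 8.05 and 7.27 in AZA, and 8.06 and 7.83 in vehicle. Both vehicle libraries were above all 4 libraries with AG120, and AZA replicate 2 lay among the values with AG120. The log2 change with AG120 over both AZA levels was -0.56 ± 0.20 (adjusted p = 0.121), and -0.74 without AZA replicate 2 (adjusted p = 0.0424). Gse1 differed by -0.55 in the same comparison, so the value belongs to the pair. The log2 change in that comparison was -0.09 ± 0.25 for Gins1, -0.06 ± 0.27 for Gins3 and 0.02 ± 0.18 for Gins4, none of which passed, and the difference between GINS genes was not tested.

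Fen1 was at 6.50 and 4.87 log2 CPM in AG120_AZA, 6.74 and 6.60 in AG120, 6.53 and 6.45 in AZA, and 6.55 and 6.64 in vehicle. A single library, AG120_AZA replicate 2, was low, and the other 7 lay between 6.45 and 6.74. The log2 change in AG120_AZA against vehicle was -0.91 ± 0.40 (adjusted p = 0.223). It was -1.72 without AG120_AZA replicate 1 (adjusted p = 0.00515), a value that rests on the low library alone, and Fen1 passed against AG120 (-1.80, adjusted p = 0.00795) and AZA (-1.61, adjusted p = 0.00808) under the same omission. Without AG120_AZA replicate 2 the difference from AZA was 0.01. The partner Gm10143 was at 6.49 and 4.85 in AG120_AZA and at 6.43 to 6.71 in the other 6 libraries.

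The remaining clamp, single-strand binding and firing genes gave values and no call. Rfc5 was at 6.82 and 6.96 log2 CPM in AG120_AZA, 6.92 and 6.83 in AG120, 6.43 and 6.83 in AZA, and 6.28 and 6.45 in vehicle, with a log2 change of 0.53 ± 0.22 in AG120_AZA against vehicle (adjusted p = 0.193). Vehicle was below both groups with AG120. Rfc4 was at 5.18 and 5.97, 5.50 and 5.60, 5.57 and 5.63, and 5.08 and 4.97 in AG120_AZA, AG120, AZA and vehicle, the vehicle libraries being the lowest. Rpa1, the large subunit of the single-strand binding trimer, was at 7.48 and 7.86 in AG120_AZA, 7.24 and 7.02 in AG120, 7.43 and 7.55 in AZA, and 7.28 and 7.52 in vehicle. The AG120 libraries were the lowest, with a difference of 0.54 ± 0.21 in AG120_AZA against AG120 (adjusted p = 0.453). Rpa2, the middle subunit, lay at 7.89 to 8.42 over all libraries. Rpa3 was at 3.37 and 2.31 in AG120_AZA, 3.07 and 3.93 in AG120, 4.12 and 3.35 in AZA, and 1.80 and 3.30 in vehicle, with the 2 libraries of most groups far apart. Cdc45, which joins the helicase at firing, lay at 3.98 to 4.96, and the kinase subunits Cdc7 and Dbf4 at 3.33 to 4.70 and 3.73 to 4.97, with each group overlapping the others. Chaf1b, the partner of Chaf1a in CAF-1, lay at 4.05 to 5.27.

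The lists of genes that work beside these 42 held from 0 to 2 calls in a comparison. The calls are read against the share of all genes called. That was 5.85% in AG120 over both AZA levels, 3.02% in AG120_AZA against vehicle and 2.26% in AG120_AZA against AZA. Of 11 other loading and firing factors, 0 passed in any comparison by limma, and at most 3 reached an unadjusted p below 0.05 in 1 comparison. Of 17 other fork and polymerase factors, 1 passed: Rnaseh2a, the catalytic subunit of RNase H2, which removes RNA from DNA, rose with AG120 over both AZA levels by 0.70 ± 0.16 (adjusted p = 0.0266). Of 17 nucleotide supply genes, Cad, which starts pyrimidine synthesis, rose by 0.89 ± 0.18 (adjusted p = 0.0166) in the same comparison. Of 16 checkpoint and repair genes, 2 were called higher with AG120 over both AZA levels, among them Fancd2, a protein of the Fanconi anemia repair pathway (1.37 ± 0.34, adjusted p = 0.0362), and 1 was called higher in AG120_AZA against vehicle. Of 12 other chromatin assembly genes, 0 passed, with at most 3 at an unadjusted p below 0.05.

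The genes that govern entry into S phase held the largest called changes among these lists. Ccnd1, or cyclin D1, averaged 2.07 ± 1.13 log2 CPM in AG120_AZA, 3.12 ± 0.24 in AG120, 4.37 ± 0.07 in AZA and 5.12 ± 0.16 in vehicle (SD, n = 2 each). It fell by 3.05 on the log2 scale in AG120_AZA against vehicle (SE 0.49, adjusted p = 0.00804) and was also called lower against AZA (-2.30 ± 0.49, adjusted p = 0.0377). Ccne1, or cyclin E1, averaged 5.86, 5.16, 4.95 and 4.71 in the same order and rose by 1.16 ± 0.27 in AG120_AZA against vehicle (adjusted p = 0.0447). Cdkn2a, which encodes inhibitors of the cell cycle, rose with AG120 over both AZA levels by 1.73 ± 0.38 (adjusted p = 0.0214), where Ccnd1 was lower (-2.15 ± 0.34, adjusted p = 0.00447). These were the only called genes among 29 measured of 31 listed. The list had 1 called higher and 1 lower in AG120_AZA against vehicle (3.02% of all genes called), and 1 lower against AZA (2.26%). With AG120 over both AZA levels it had 1 higher and 1 lower (5.85%). Counts this small say nothing particular about the list. Of 24 mitosis genes, 1 passed, Cdc20, an activator of the anaphase-promoting complex, which rose by 0.91 ± 0.20 in AG120_AZA against AZA (adjusted p = 0.0450) and by 0.64 ± 0.16 with AG120 over both AZA levels (adjusted p = 0.0388).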

How the data were processed

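Libraries were made with the QuantSeq 3′ mRNA kit from sorted cells, per the labels' protocols. The submitters' processing notes name HISAT2 2.1.0 and build mm10, cutadapt 1.14 and bcl2fastq 2.17.1.14, then edgeR 3.28.1, limma 3.42.2 and R 3.6.2, and also Subread 1.6.3 with featureCounts. The authors deposited log2 CPM values for 12294 genes in 8 libraries, which were used as they stand, with no filter. Their largest value was the same in every library, and sums were nearly equal, so depth cannot be read from them.

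Each comparison was fitted by limma 3.58.1 (R 4.3.3; lmFit, then eBayes with trend) over all genes, and p-values were adjusted by Benjamini-Hochberg over all of them, with calls below 0.05. The 5 pairwise comparisons and the interaction came from a model of group means, with 4 residual degrees of freedom and 7.06 from the prior. An additive model (5 and 6.85) gave each drug over both levels of the other. The steps were tested on simulated data. Alternatives were no trend, vooma weights, genes averaging at least 5 log2 CPM, centring, a replicate block, only the groups compared, leaving out each library, and, chosen after seeing the data, leaving out members with a gene over their 3′ end. Gene spans and exons are from GENCODE M21, and promoters from RefSeq. The members, lists and tests were chosen with earlier results of these data known. Every member could be named, in order of role. Values of every library were given for called members and, where fewer than 4 were called, the 4 smallest p-values of a comparison, and of the neighbouring lists the called genes were named, apart from items that are not reported here.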

Additional observations from a re-analysis of the deposited data

How the results depend on the processing

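Of 35 member changes followed through the alternatives, 456 of 471 values kept direction and side of the threshold, 6 became calls, 8 were calls lost and 1 reversed. That was Fen1 in AG120_AZA against AZA, at 0.0125 without AG120_AZA replicate 2 and -1.61 without AG120_AZA replicate 1. Of the 35 changes, only Pold2 with AG120 over both AZA levels was called in the main fit, and all 8 lost calls were of it. Most other values kept their side only by staying uncalled. Most of the changes were followed for their small p-values in these data, so the count kept is no measure of stability. With AG120 over both AZA levels, 0 members were called without the mean-variance trend, and 0 to 3 when each library was left out (3 without AZA replicate 2, namely Pold2, Pold1 and Gins2). Under the omissions, called members numbered 0 to 1 in AG120_AZA against vehicle and against AG120, and 0 to 2 against AZA. The members' median log2 change ranged from -0.0049 to 0.219 in AG120_AZA against AZA and from -0.18 to 0.14 in the interaction. Leaving out the 8 members with a gene over their 3′ end, chosen after seeing the data, left the count of called members as it was in all 8 comparisons. Pold2, the only called member, is not among those 8, so this omission had no call to remove and tests nothing about it. The replicate numbers are not said to pair the libraries, and same-numbered libraries deviated together with correlations of -0.11 to 0.19. With the replicate block, 1 member was called with AG120 over both AZA levels and 0 elsewhere.

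Over the whole table the counts moved more. Without the trend they were 0 in AG120 against vehicle (71 with it), 43 in AG120_AZA against vehicle (371), 9 in AG120_AZA against AZA (278), 211 with AG120 over both AZA levels (719) and 2 in AZA against vehicle (0). Over genes averaging at least 5 log2 CPM the first 4 were 23, 82, 67 and 369. Vooma gave 31 in AG120 against vehicle, and only the groups compared gave 18 there, 200 in AG120_AZA against vehicle and 1 in AZA against vehicle. Omissions gave 8 to 103, 37 to 727, 14 to 594 and 201 to 771 in the first 4, and 0 to 213 in AG120_AZA against AG120, 0 to 1 in AZA against vehicle and 0 to 29 in the interaction. The cause of these shifts was not tested. With 2 libraries a group and unknown depth, a change smaller than the intervals given cannot be seen.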
